A study of Mus musculus with 8 samples.

Results

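The regions described here are 520 promoters of the mouse genome at which the transcription factor E2f3 was found in crypt cells and in villus cells of Rb-deficient intestine, and in neither cell type of control intestine. They were chosen on the deposited E2f3 and Myc binding sites themselves. E2f3 sites of the 4 E2f3 libraries were pooled, sites within 250 bp of a site in any of the 4 Myc libraries were dropped, and the remaining sites within 250 bp of each other were chained into regions. A member had sites from both Rb-deficient libraries, no site from either control library, and a median position within 1 kb of the start site of a protein-coding gene. The rule kept 520 of 4371 promoter regions away from Myc sites, or 11.9%, out of 8124 such regions at any position.

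The measurements are ChIP-exo-seq maps of E2f3 and of Myc in intestinal crypt cells and intestinal villus cells of mice, a method that digests immunoprecipitated chromatin with an exonuclease until the bound protein stops it. Every combination of genotype, cell type and antibody was 1 library, 8 in all, so no difference between groups has a replicate check and no p-value is given. All mice had a mixed background labelled C57BL/6 X 129 X FVB/N. The Rb-deficient mice, labelled Rb KO, had lost Rb through Ah-cre, an inducible Cre recombinase of the intestine. The control mice were labelled wild type, and whether they carried or were induced for Ah-cre is not given in the sources used here, nor are age, inducing agent, time after induction and number of animals. The antibodies were sc-878 X against E2f3 and sc-764 X against Myc. The tables hold binding sites only, so neither the loss of Rb nor the purity of the crypt and villus cells could be checked on expression, and a shift in the mixture of cells cannot be told apart from a change of binding within a cell.

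Rb is a pocket protein that binds activating E2f factors, E2f3 among them, and blocks their transactivation. E2f targets are best known as genes of the G1/S transition, DNA replication and DNA repair, and promoters of that kind carry the E2F word TTCCCGC or a close variant. Genes expressed later, in G2 and mitosis, are typically controlled through a cell cycle homology region (CHR), read by the MuvB complex, often next to CCAAT boxes bound by NF-Y. Intestinal cells divide in the crypts, where the stem cells reside, and normally stop dividing and differentiate as they move onto the villi.

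Sequences of 3 kinds are shown because the comparisons below turn on them. They are picked examples from members between ranks 1 and 83, and other members of these ranks are left out. Each is read from mm9 (NCBIM37) around the Rb-deficient villus site, 5′ to 3′ on the strand of the nearest gene. The first set had an E2F word at the site or within the 29 bases around it. Capitals mark 6-base E2F words on either strand, which are TCCCGC and its variants TGGCGC with a different centre, TCGCGC with a CpG-rich one and, least frequent, TGCCGC. Where another T precedes the word, the capitals take in the 7-base word.
Zfp367, chr13:64254509-64254537, minus strand, outside genes: gttccgcccagGCGCGAAatgtaacgcgg
Pax6, chr2:105515642-105515670, plus strand, 5′ UTR: ctcggcctcatTTCCCGCtctggttcagg
Lrr1, chr12:70269778-70269806, plus strand, outside genes: agacctgtcagGCGGGAgGCGCCAAgttt
Ncaph, chr2:126959643-126959671, minus strand, 5′ UTR: cgtcacgcggcggttaccgcgcTTGGCGC
Ing3, chr6:21899576-21899604, plus strand, 5′ UTR: aagcgccgtcagGCGCCAAagtggagcct
Nup85, chr11:115425768-115425796, plus strand, 5′ UTR: gctgtctgtgaGCGGGAggcctgagcgca
Mcm2, chr6:88848671-88848699, minus strand, 5′ UTR: gtctagttTTCGCGCGAAaaccggtggca
The second set held a CHR word, TTTGAA or TTCGAA on either strand, which the capitals mark here.
Whsc1, chr5:34163176-34163276, plus strand, outside genes: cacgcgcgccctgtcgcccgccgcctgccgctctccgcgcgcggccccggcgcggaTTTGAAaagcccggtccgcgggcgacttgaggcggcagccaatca
Anapc7, chr5:122872157-122872257, plus strand, intron: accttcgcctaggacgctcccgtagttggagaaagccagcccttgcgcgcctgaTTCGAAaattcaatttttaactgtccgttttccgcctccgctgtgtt
Ap4m1 and Mcm7, chr5:138613259-138613287, plus strand, 5′ UTR: ggacaccctgtttcccgcggTTCGAAatt
Cdkn2a, chr4:88940944-88941044, minus strand, outside genes: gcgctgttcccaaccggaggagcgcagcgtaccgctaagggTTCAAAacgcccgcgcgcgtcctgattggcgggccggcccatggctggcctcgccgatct
Cenpw, chr10:29920365-29920393, minus strand, outside genes: ccgtgcgccgtccggcggccaaTTCAAAt
Kpna2, chr11:106860863-106860891, minus strand, outside genes: ccccgcctaacgtgtttTTCAAAcctacc
The third set had neither word in the 29 bases shown. Within 50 bp of the median position, the window used for most shares below, Cenpe had a 6-base E2F word and Racgap1 a CHR word.
Cenpe, chr3:134875543-134875571, plus strand, 5′ UTR: taaacttaaaggcggggcggcccgggagc
Racgap1, chr15:99482052-99482080, minus strand, 5′ UTR: tgaaccggatctggcggcgcggttttaca
Gtse1, chr15:85690150-85690178, plus strand, 5′ UTR: cggagccgggcgccgcgtttaaaccggtg
In Lrr1, a GCGGGA and a GCGCCAA word lay side by side. In Ap4m1, whose region also serves Mcm7, a TTCCCGC word was followed by a TTCGAA word within the same 29 bases. Both words lay more than 50 bp from the region's median position, so shares taken around that position count neither of them here.

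The members with the highest scores included genes of mitosis, chromatin, transcription, replication and protein glycosylation. The deposited score runs from 2.0 to an upper cap of 999 and its meaning is not stated, so it served to rank sites within a list. Members were ordered by the lower of their percentiles in the Rb-deficient crypt and villus lists. First came Zfp367, which encodes a zinc finger protein, with a score of 180.55 in crypt and 51.19 in villus, 16 bp upstream of its start. Second was Cenpe, the kinetochore motor that links chromosomes to spindle microtubules, with 97.75 in crypt and 50.19 in villus. Whsc1, a histone methyltransferase, followed with the highest crypt score of any member, 183.65, and 49.71 in villus. Both libraries thus placed these 3 promoters near the top of their lists, at percentiles between 96.2 and 99.

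Ranks 4 to 12 were held by genes of several functions. Phf17, a subunit of histone acetyltransferase complexes, scored 105.8 in crypt and 45.17 in villus. Mpdu1, needed for the use of mannose donors in protein glycosylation, scored 101.37 and 44.76. Kif20a, a kinesin of cytokinesis, and Brd8, a chromatin reader, shared a region that scored 88.63 and 43.18. These 3 regions lay in the same narrow range of both lists.

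Anapc7, part of the ubiquitin ligase that triggers anaphase, scored 112.02 in crypt and 41.8 in villus. The region of Ap4m1, a vesicle adaptor subunit, and Mcm7, a subunit of the replicative helicase, scored 68.82 and 37.2. Mnt, a Max partner that represses Myc targets, scored 74.57 and 34.22 at a site 880 bp downstream of the start. The villus scores of these 3 regions were lower than those of the first 6, while the crypt score of Anapc7 was above 4 of them.

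Pax6, a transcription factor with a role in enteroendocrine cells, scored 85.19 in crypt and 32.99 in villus. Lrr1, a ubiquitin ligase receptor that acts on replication forks at termination, scored 74.41 and 32.89. Racgap1, the GTPase-activating subunit of centralspindlin, scored 75.23 and 31.98. At the other end, the 3 lowest ranks were held by Tab1, Stk25 and Nfib, each at the minimum score in at least 1 list. The lowest, the region at Nfib, scored 2.0 in both lists.

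Members stood in the middle of their lists and below the regions also found in control intestine. Their median score was 10.75 in Rb-deficient crypt, at percentile 52.3 of the list, ranging from 2.0 to 183.65, and 6.525 in Rb-deficient villus, at percentile 45.1, ranging from 2.0 to 51.19. No member reached the cap. By comparison, the 467 promoter regions with sites in all 4 E2f3 libraries had medians of 79.12 and 28.28 in the same lists. The 719 regions with sites in both Rb-deficient libraries and control crypt had medians of 20.4 and 7.34, so in villus they lay close to the members. Across the 520 members, the 2 scores rose together, with a Pearson r of 0.652 on log10 values and a Spearman rho of 0.599, both given as a description because each member had to pass both lists.

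**Figure D1:**
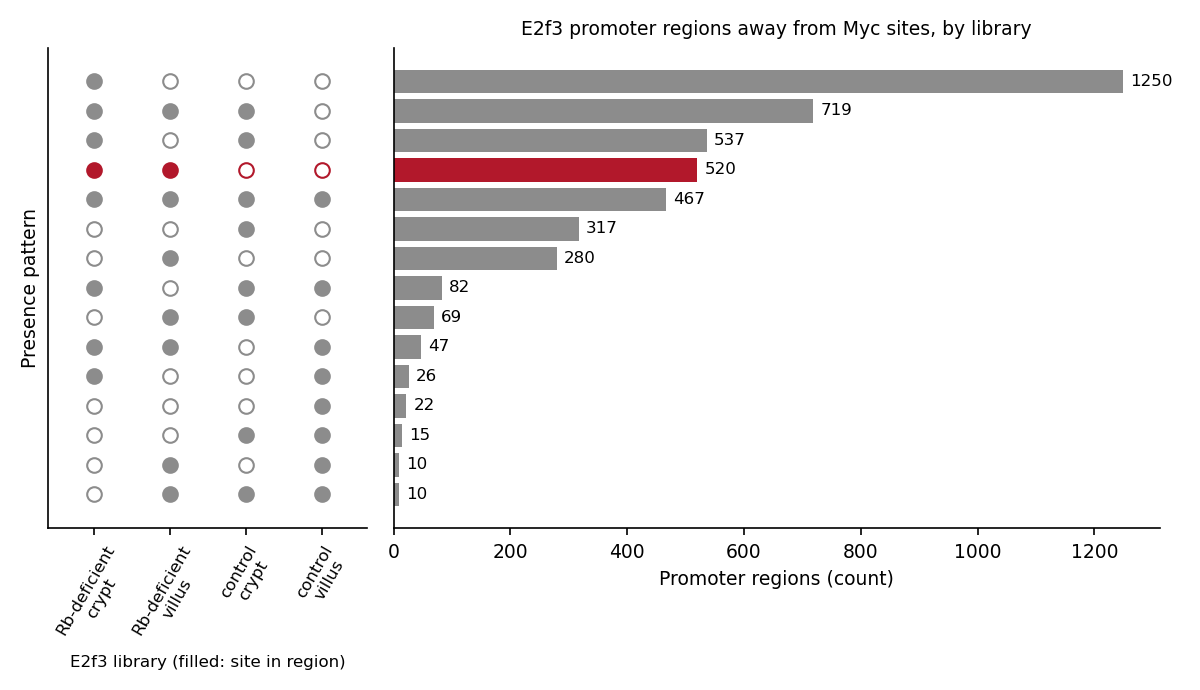
Counts of E2f3 promoter regions away from Myc sites for each presence pattern: filled circles on the left mark the libraries with a site in the region, and the bars give the number of regions. The 520 members (red) follow 1250 regions of Rb-deficient crypt alone, 719 and 537, and the converse pattern with sites in both control libraries only holds 15 regions.

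The lists differ in length, and the number of regions of a pattern moves with that length. The E2f3 lists held 27396 sites for Rb-deficient crypt, 14843 for Rb-deficient villus, 32666 for control crypt and 7405 for control villus. Reads and depth are unknown, and the control villus list, the shortest, is one of those whose silence defines a member. Between 13.56% and 23.84% of the sites of each E2f3 list lay away from Myc sites, with the lower shares in the control lists. With every E2f3 list reduced to its 7405 highest-scoring sites, 241 members were left, which was 30.01% of the promoter regions shared by both Rb-deficient libraries, against 29.66% with the full lists. With a score of at least 10 required in the Rb-deficient lists and any score in the controls, 127 were left. The converse pattern, control crypt and control villus only, held 15 promoter regions, H2afv having the highest villus score among them, 52.25.

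**Figure D2:**
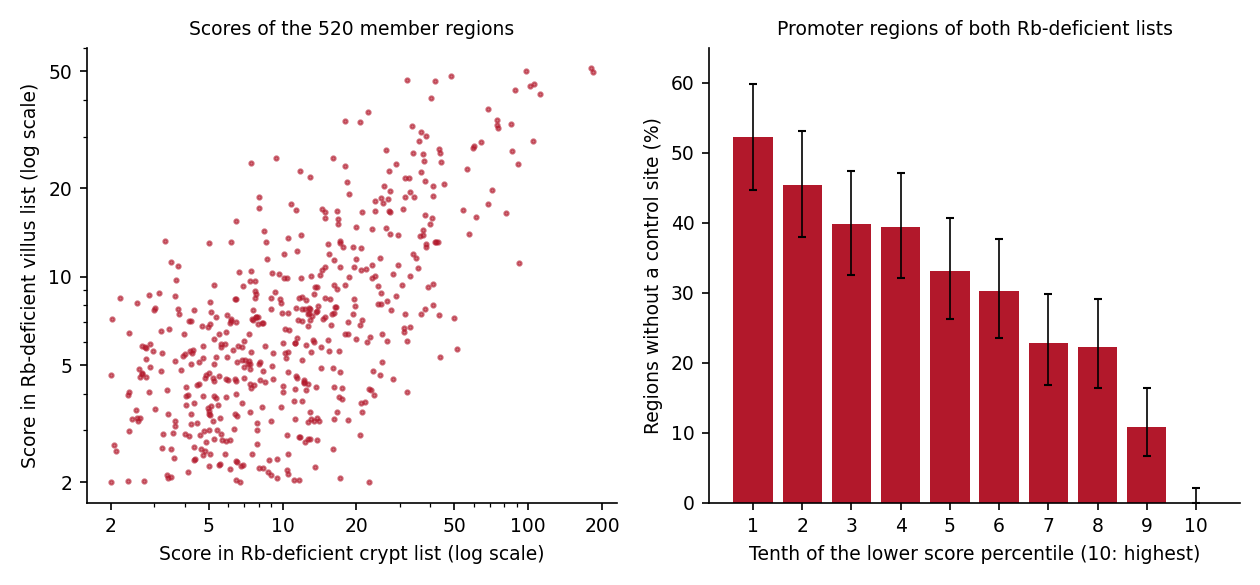
Left, the deposited score of each of the 520 members in the Rb-deficient crypt list and the Rb-deficient villus list, on log axes, with 1 point per region. Right, the share of the 1753 promoter regions found in both Rb-deficient lists that had no control site, in 10 equal groups by their lower score percentile, with 95% Clopper-Pearson intervals that cover counting error only. The share falls from 52.27% in the lowest group to 0 of 175 in the highest.

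The absence of a control site went with a low score. Of 1753 promoter regions shared by both Rb-deficient libraries, 520, or 29.66% (95% Clopper-Pearson interval 27.53 to 31.86), had no control site. With these regions split into 10 equal groups by their lower percentile, the share was 52.27% (92 of 176) in the lowest group. In the group next to the highest it was 10.86% (19 of 175). In the highest group, 0 of 175 lacked a control site, which allows a share of up to 1.71% by the limit of 3 counts and up to 2.086% by the 95% Clopper-Pearson interval. The strongest regions shared by both Rb-deficient libraries thus all had a control site, and the part of detection limits in the members' pattern was not tested.

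The edges of the rule were as follows. Gm7461 was the member farthest from a start, at 997 bp, and a region near Sgpp2 with the same library pattern lay just outside, 1 bp beyond the limit of 1 kb. Rdh13 was the member with the nearest Myc site, 1 bp beyond the limit of 250 bp. Mapre1, a microtubule plus-end protein, had a control E2f3 site 253 bp away and remained a member, while the Rpl14 region had one 230 bp away in the same chain and was not a member. At 2 members, Map4k1 and Hint1, a control E2f3 site within 250 bp had been removed by the Myc filter, 20 and 67 bp from the member's site.

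Some members stood beside a promoter site that control intestine did have. Of the 520, 77, or 14.8%, had a control E2f3 site within 1 kb before any Myc filter, 71 of them in control crypt and 27 in control villus. At 53 of the 71, Rb-deficient crypt also had a site within 10 bp of the control crypt site, and at 39 that site scored higher in the Rb-deficient crypt list than the member did. Lrr1 had a control site 280 bp away, with scores of 201.82 in control crypt and 63.68 in control villus, and Rb-deficient crypt scored 137.63 there, against 74.41 at the member. At the Ap4m1 and Mcm7 region the control crypt site lay 485 bp away with a score of 134.65, and Rb-deficient crypt scored 99.7 there, against 68.82 at the member. Nup85, a nuclear pore scaffold subunit, had one 260 bp away with 172.88 in control crypt and 43.28 in control villus, and Rb-deficient crypt scored 198.72 there, against 37.94.

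At Srsf1, a splicing factor, the site 409 bp away reached the cap of 999 in control crypt and in both Rb-deficient lists, against 33.02 and 19.39 at the member. In these 4 promoters, the member was thus the weaker of 2 sites of Rb-deficient crypt, and the control libraries had a site at the stronger one. Whsc1 and Phf17 had the reverse order. Their control crypt sites, 282 and 536 bp away, scored 5.15 and 6.77, and Rb-deficient crypt scored 10.75 and 62.67 there, below the members' 183.65 and 105.8. With all regions within 1 kb of a control site left out, 443 members remained.

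The members served 580 genes, which is 2.61% of 22232 protein-coding genes and 13.6% of the 4251 genes with any E2f3 promoter region away from Myc sites. Of these genes, 486 had no control E2f3 promoter site at all, and 94 had one elsewhere within 1 kb of a start. At 70 members, or 13.46%, starts on both strands fell within 1 kb, so the region lay between or over divergent genes and cannot be given to either. Examples are the region between Oip5 and Nusap1 and that of Kif20a and Brd8. In the regions with sites in all 4 libraries the share was 17.99% (95% interval 14.61 to 21.78), against 10.65 to 16.7 for the members.

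**Figure D3:**
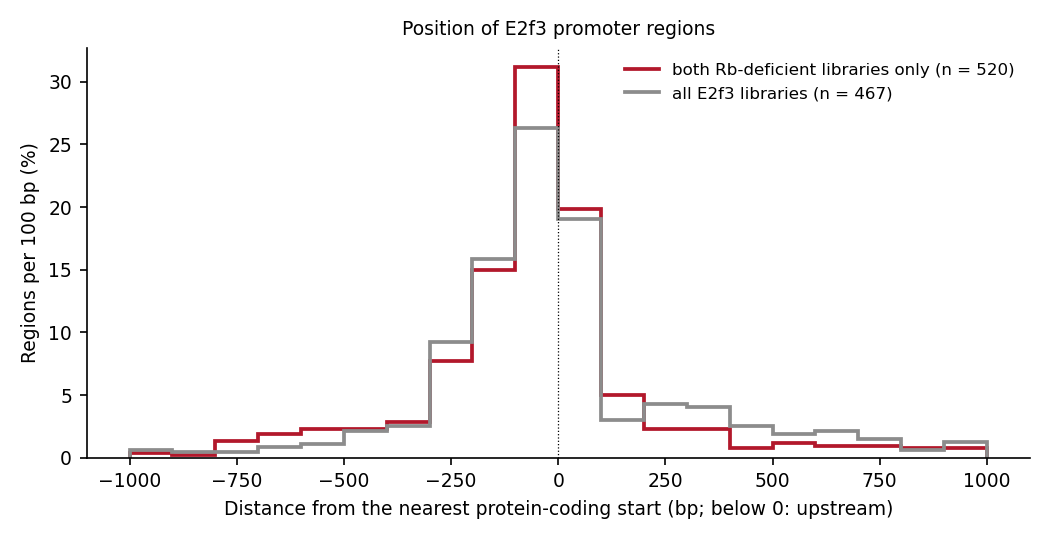
Distance of the median position of each region from the nearest protein-coding start, in 100-bp steps, as a percentage of regions, with upstream below 0. The 520 members (red) and the 467 regions with sites in all E2f3 libraries (grey) both peak in the 100 bp upstream of the start, with 31.15% and 26.34% of regions.

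Members sat close to the start. The rule allowed 1 kb, and within it the median position was 36 bp upstream (-36 bp), with 51.15% (46.77 to 55.53) within 100 bp and 65.19% upstream. The regions in all 4 libraries had a median of -31 bp and 45.4% (40.82 to 50.04) within 100 bp. By annotation, 51.54% of members lay outside genes, 28.08% in a 5′ UTR, 17.69% in an intron and 2.692% in coding sequence. Around their median position, members had a median GC content of 64.1% and an observed-to-expected CpG ratio of 0.879, against 58.8% and 0.594 for all 45974 start sites and 60.8% and 0.839 for the regions in all 4 libraries. Members were thus CpG-rich promoters, as were the regions in all 4 libraries.

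Crypt and villus often placed E2f3 on the same base of a member. The best sites of the 2 Rb-deficient libraries fell on the same base in 255 of 520 members, or 49.04% (44.66 to 53.43), and within 10 bp in 64.42%. In members without a 7-base E2F word the share was 47.22% (42.22 to 52.27), and in those with one 54.84% (45.65 to 63.79). It was lower than in the regions also found in control crypt, 67.87% (64.32 to 71.28), and in those of all 4 libraries, 82.01% (78.22 to 85.39). Examples on 1 base are Phf17, Mnt, Pax6 and Lrr1. At Fbxo5, in contrast, the best sites lay 184 bp apart. The intervals cover counting error only, and all members share the depth and the site caller of the same 2 libraries.

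**Figure D4:**
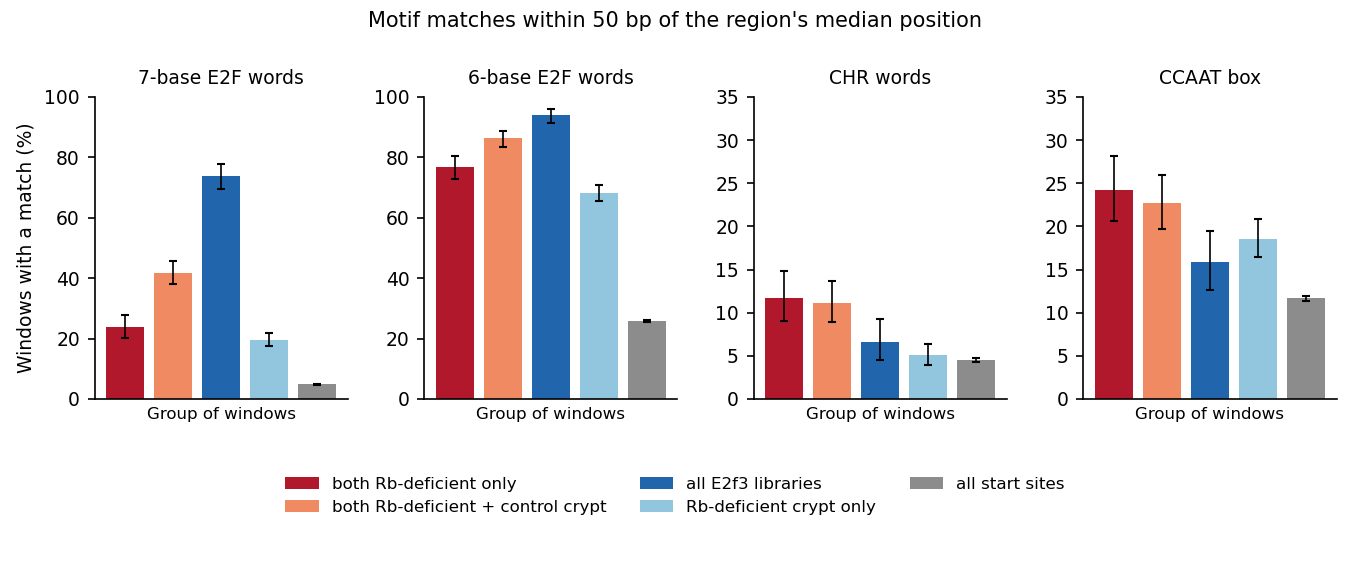
Share of 101-bp windows around the median position with a match to the 7-base E2F words, the 6-base E2F words, the CHR words or a CCAAT box, for 5 groups of windows, with 95% Clopper-Pearson intervals. The left and right pairs of panels have different axes. The 7-base E2F words reach 23.85% in members and 73.88% in regions of all E2f3 libraries, and CHR words reach 11.73% and 6.638%.

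E2F words were present at most members, but more often in a shorter form than at the regions of all 4 libraries. A 7-base word, which is one of the 6-base words with another T before it on either strand, lay within 50 bp of the median position in 124 of 520 members, or 23.85% (20.24 to 27.75). The share was 73.88% (69.64 to 77.81) in regions of all 4 libraries and 41.86% (38.23 to 45.57) in those shared with control crypt. It was 19.6% in regions of Rb-deficient crypt alone and 20.36% in those of Rb-deficient villus alone, so a low share was not particular to the members. Regions of all 4 libraries also had higher scores than members, as given above, and the part of score in this difference was not tested. In windows of the same length the share was 4.809% at all protein-coding starts and 1.058% at 2 kb to each side of the members. The most frequent 7-base word in members was TTCCCGC, in 62 regions, followed by TTGGCGC in 32. The 6-base words, which the 7-base words contain, were found in 76.73% (72.86 to 80.3) of members, 94% of regions of all 4 libraries and 25.91% of all starts.

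The letters at the villus site itself show the same difference. Within 10 bp of that site, GCGGGA was present in 47.5% of members and 86.3% of regions of all 4 libraries. Its form with a second A, read as CGGGAA, was present in 10.4% and 66.4%. The form with a G instead, CGGGAG, was present in 28.8% and 17.8%. The GC-rich word CCCCGC was present in 16.5% of members and 3% of the shared regions. For GCCCGC the shares were 16.3% and 3%. CCCGCC, which overlaps GC boxes and some E2F sites, led in members with 56.3% and stood at 66% in the shared regions. Among the sequences printed above, Pax6 has the longer word at its site and Nup85 the shorter one followed by G. The authors' site caller may place sites on such words, so these shares are not independent of the calling.

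Where a 6-base E2F word lay within 50 bp of the Rb-deficient villus site, its centre was within 3 bp of the site in 276 of 399 members, or 69.17% (64.39 to 73.67). For crypt the count was 280 of 397. The median distance was 0.5 bp in both. With 7-base words, 69 of 129 villus sites lay within 3 bp. In members with a 6-base word near the site, the deposited site thus usually lay on that word, as at Zfp367, Lrr1 and Pax6 above. The site caller may place sites on such words, and positions were raised by 1 because E2F words then centred on them. Whether E2f3 itself sat on the word was therefore not tested.

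CHR words and CCAAT boxes were found at members more often than at starts in general. A CHR word lay within 50 bp of the median position in 61 members, or 11.73% (9.093 to 14.81), against 4.522% of all starts, 6.638% (4.554 to 9.29) of regions in all 4 libraries and 5.04% of regions in Rb-deficient crypt alone. The regions shared with control crypt had 11.13% (8.922 to 13.66), and the intervals overlap over most of their width. The windows 2 kb to each side had 8.654% (7.016 to 10.53). CCAAT was found in 24.23% (20.61 to 28.15) of members, 15.85% (12.65 to 19.48) of regions in all 4 libraries and 11.65% of all starts. The CCAAT share was 22.67% (19.66 to 25.91) in regions shared with control crypt and 14.52% in the windows 2 kb to each side. CHR and CCAAT together were found in 23 members (4.423%), in 4.312% of regions shared with control crypt, in 1.071% of regions of all 4 libraries and in 0.7047% of all starts. For these words, the members were thus close to the regions shared with control crypt.

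The CHR words were concentrated in the members with higher scores. Of the 104 members with the highest ranks, 25, or 24.04% (16.2 to 33.41), had a CHR word. Of the 104 with the lowest ranks, 7, or 6.73% (2.749 to 13.38), had one. The 7-base E2F words stood at 28.85% (20.38 to 38.55) and 20.19% (12.96 to 29.19) in the same groups. Both a CHR and a 7-base E2F word were found in 10 members, CHR alone in 51, the 7-base word alone in 114 and neither in 345. The 7-base word was thus present in 10 of the 61 members with CHR, beside 23.85% of all members. Whsc1 and Ahctf1 are members with both. The centre of the CHR word lay a median of 19 bp from the villus site and 20.5 bp from the crypt site. Within 15 bp of the villus site it was found in 25 of 62 members, and downstream of that site in 31 of 62.

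Other promoter words were searched in the same way. The GC box GGGCGG lay in 58.46% of members and 25.1% of all starts, close to the 56.19% of regions shared with control crypt. The E-box CACGTG, the word of Myc and Max, lay in 4.231% of members and 2.928% of all starts, after removal of the E2f3 sites within 250 bp of a Myc site. The CRE word TGACGTCA lay in 13 members (2.5%), against 1.014% of all starts. The ETS word CCGGAAG lay in 4.808% and 5.703%, and the NRF1 word in 1.346% and 0.559%. The YY1 word AAGATGGC lay in 1.346% and 2.012%.

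Genes of mitosis were frequent among the members with high scores. The 4 lists of kinetochore and centromere, spindle and kinesin, mitotic entry, checkpoint and APC, and condensin and cohesin genes held 174 genes, of which 138 had an E2f3 promoter region away from Myc sites. Of these, 33 were member genes, or 23.9% of those with a region, against 13.6% over all genes with a region. They made up 5.69% (3.948 to 7.898) of member genes, 6.14% (4.577 to 8.037) of genes of the regions shared with control crypt, and 3.697% (2.272 to 5.652) of genes of regions in all 4 libraries. Mitotic genes were thus about as frequent in the regions shared with control crypt as in the members. Among the 33 mitotic member regions, 17 lay in the 104 highest ranks and 3 in the 104 lowest. Their median lower percentile was 71, against 32.3 for the other members. Whether mitotic genes also had higher scores than other genes in the regions of other patterns was not tested.

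Kinetochore and centromere genes gave 10 member genes of 36 with a region. After Cenpe came Oip5, which helps to load the centromeric histone, with scores of 43.97 in crypt and 24.55 in villus. Zwilch, a subunit of the complex that recruits dynein to kinetochores, scored 25.26 and 18.5. Cenpw, a centromere protein, scored 29.46 and 13.87 and had CCAAT and CHR words overlapping next to its site, as the letters above show. The other 6 were Dsn1, Cenpj (also counted among the centrosome and cilium genes below), Pmf1, Hjurp, Cenpi and Mlf1ip. Their crypt scores ran from 8.06 to 38.38. No member of this list had a 7-base E2F word. Of the 10 genes, only Pmf1 had a control E2f3 promoter site elsewhere.

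Spindle and kinesin genes gave 10 of 37. Kif20a and Racgap1, both acting in cytokinesis, were the highest. Nusap1, which bundles spindle microtubules, shared the region of Oip5. Dlgap5, a spindle assembly factor, scored 56.36 in crypt and 23.25 in villus. Ckap5, Kif20b, Kif24, Numa1, Haus3 and Mapre1 completed the list, with crypt scores down to 3.57 at Mapre1. None of these 10 had a 7-base E2F word either, and 3 (Racgap1, Ckap5 and Kif24) had CHR words within 50 bp. A control E2f3 promoter site elsewhere was present at 2 of the 10 genes, Numa1 and Mapre1.

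Mitotic entry, checkpoint and APC genes gave 8 of 47, the lowest share of the 4 mitotic lists, at 17%. Fbxo5, an inhibitor of the anaphase-promoting complex, scored 59.35 in crypt and 27.53 in villus and had a 7-base E2F word, 485 bp upstream of the start. Of the 8 genes, only Fbxo5 had a control E2f3 promoter site elsewhere. Gtse1, a microtubule-binding protein of G2 and mitosis, scored 36.61 and 22.73. Ccnf, the F-box protein cyclin F, scored 32.14 in crypt and 46.59 in villus, percentiles of 85.4 and 95.8. Anapc7, Ccnf, Lin9, Ttk and Lin54 had CHR words. Lin9 and Lin54, named here after their values were seen, are subunits of MuvB, and Lin54 is the subunit that reads CHR. Lin9 scored 27.16 and 22.94, and Lin54 3.32 and 13.28. The E2f3 region of Ccna2, cyclin A, also named after its values were seen, scored 39.02 and 9.26.

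Condensin and cohesin genes gave 5 of 19. Ncaph, a condensin subunit, scored 64.54 in crypt and 28.82 in villus and had the TTGGCGC word shown above. The cohesin subunit Smc3 scored 11.96 and 7.75, and also had a 7-base word. Ncaph2, of the other condensin complex, scored 32.04 and 6.04. Stag1, a cohesin subunit with 2 member regions, scored 6.44 and 4.41 in the higher one, and Smc6, of the related repair complex, 3.66 and 3.24. Within this list the ranks thus ran from 15 to 406 of 520. Of the 5 genes, 2 had a control E2f3 promoter site elsewhere, namely Smc3 and Smc6. At Smc6 it lay 372 bp away and scored 37.29 in control crypt. Rb-deficient crypt scored 226.36 there, against 3.66 at the member. At Smc3 it lay 849 bp away and scored 26.44 in control crypt. Rb-deficient crypt scored 42.59 there, against 11.96 at the member.

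The mitotic member regions had their own word content. Of the 33, 4 (12.12%, 3.403 to 28.2) had a 7-base E2F word, against 24.64% of the other members and 14 of 20 mitotic regions in all 4 libraries. A CHR word was found in 10 (30.3%, 15.59 to 48.71), against 10.47% (7.897 to 13.54) of the other members. CCAAT was found in 14 (42.42%, 25.48 to 60.78), against 23% (19.33 to 27). CHR and CCAAT together were found in 6 (18.18%). These are counts over few promoters of 1 list each, chosen with earlier results of these data in view, and are given as a description.

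DNA replication genes were rare among the members. Of 59 with a region, 4 were member genes, or 6.78%, while 30 had a region in all 4 libraries. They made up 0.6897% (0.1882 to 1.756) of member genes and 5.545% (3.772 to 7.822) of the genes of regions in all 4 libraries. For regions shared with control crypt the share was 1.88% (1.056 to 3.081). It was 0.6112% for Rb-deficient crypt alone and 0.6452% for Rb-deficient villus alone, so a low share was not particular to the members. The 4 member genes were Mcm7, Mcm2, Orc1 and Pole. Mcm2, a helicase subunit, scored 20.95 in crypt and 12.5 in villus, over the palindromic E2F word shown above. Orc1, of the origin recognition complex, scored 27.72 and 7.69, and Pole, the leading-strand polymerase, 12.74 and 3.21. Mcm2, Orc1 and Pole all had 7-base E2F words within 50 bp of the median position. The Mcm7 region had one at its villus site, outside that window, and a strong control site nearby, as given above.

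Nucleotide synthesis genes gave 3 of 18: Adss, Dut and Dck. Dut, which removes dUTP, scored 32.99 in crypt and 10.08 in villus. Dck, the salvage kinase for deoxycytidine, scored 16.94 and 3.9. Adss, of AMP synthesis, scored 16.86 and 15.7. The 3 villus scores spread from the 21.5th percentile to the 79th of the list.

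Regulators of E2F and the G1/S transition gave 6 of 24, or 25%, among them inhibitors of cyclin-dependent kinases. Cdkn2a, the locus of 2 tumour suppressors upstream of Rb and p53, scored 40.79 in crypt and 20.32 in villus at a site 437 bp upstream of the annotated start, with CHR and CCAAT words. Cdkn1a, which encodes the kinase inhibitor p21, scored 19.99 and 11.52. Cdkn1c, a further inhibitor named after its values were seen, scored 11.57 and 7.13. Skp2, which targets such an inhibitor for degradation, scored 25.9 and 20.45. E2f7, a repressor of the same family as E2f3, scored 27.38 and 13.93 and carried 3 E2F words within 101 bp. Both activators and inhibitors of the cycle were thus present.

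DNA repair and checkpoint genes gave the highest count, with 15 of 71, or 21.1%. Usp1, which deubiquitinates Fancd2, scored 43.21 in crypt and 27.19 in villus. Fancd2, of crosslink repair, scored 90.92 and 24.13, with sites 68 bp apart. Hus1, of the checkpoint clamp, scored 33.98 and 26.38. Blm, a RecQ helicase, scored 32.62 and 21.69. Usp1 and its substrate Fancd2 were thus both among the first 24 members. Others in the group were Chek2, Ube2t, Rad51c, Fancg, Ogg1, Xrcc1, Lig4, Pms2, Rev3l and Bard1, and 9 of the 15 had 7-base E2F words. Of the 15 genes, 3 had a control E2f3 promoter site elsewhere, namely Usp1, Rev3l and Bard1. At Bard1 it lay 633 bp away and scored 282.22 in control crypt. Rb-deficient crypt scored 999 there, against 13.1 at the member. The list made up 2.586% (1.455 to 4.23) of member genes and 3.697% (2.272 to 5.652) of the genes of regions in all 4 libraries, and the intervals overlap.

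Chromatin and histone chaperone genes gave 11 of 45, or 24.4%. Besides Whsc1 and Brd8, H2afz, the histone variant H2A.Z, scored 60.24 in crypt and 27.97 in villus. Ing3, a subunit of the Tip60 acetyltransferase complex, as is Brd8, scored 28.9 and 24.13. Lbr, Lmnb1 and Lmnb2, the lamin B receptor and both B-type lamins of the nuclear envelope, were all members. Lbr, whose values were chosen after they were seen, scored 22.38 and 36.31. Of the 11 genes, 5 had a control E2f3 promoter site elsewhere, namely Whsc1, H2afz, Ing3, Lmnb1 and Lmnb2. At Lmnb1 it lay 383 bp away and scored 71.96 in control crypt. Rb-deficient crypt scored 115.08 there, against 7.45 at the member. Of the replication-dependent histone genes, 1 of 26 with a region was a member, Hist1h2bm, with 45.35 and 20.71, whereas 13 had a region in all 4 libraries.

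**Figure D5:**
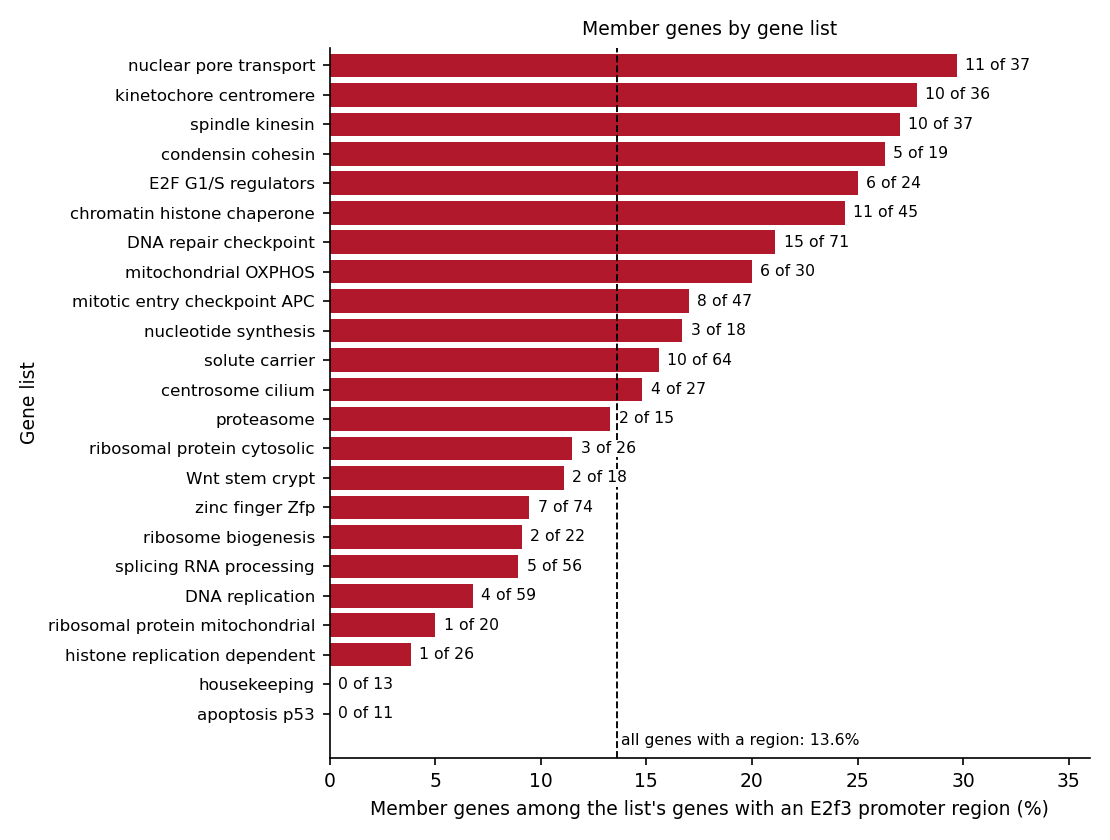
Member genes as a percentage of the genes of each list that had an E2f3 promoter region away from Myc sites, for lists with at least 10 such genes, with the counts beside the bars. The dashed line is the 13.6% of all genes with a region, and the bars run from 29.7% for nuclear pore and transport genes to 0 for housekeeping and apoptosis genes.

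Nuclear pore and transport genes had the highest share of any list, 11 of 37, or 29.7%, against 13.6% over all genes with a region. Kinetochore and centromere genes followed closely at 27.8%, and spindle and kinesin genes at 27%. Nup85, of the Y-shaped scaffold, scored 37.94 in crypt and 21.18 in villus. Ahctf1, which seeds pores on chromatin after mitosis, scored 38.18 and 16.24. Nup205, of the inner ring, scored 21.0 and 16.57. Kpna2, an importin alpha, scored 19.95 and 14.76 and had a CHR word at its site. Nutf2, Nup214, Nupl1, Cse1l, Kpnb1, Nup37 and Ipo7 were the others, among them the exporter that recycles importin alpha (Cse1l) and importin beta (Kpnb1). Of the 11 genes, 3 had a control E2f3 promoter site elsewhere, namely Nup85, Kpna2 and Kpnb1. The list made up 1.897% (0.9505 to 3.368) of member genes and 1.479% (0.6405 to 2.893) of the genes in all 4 libraries, and the intervals overlap.

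Genes of general growth and metabolism followed with smaller shares. Splicing and RNA processing genes gave 5 of 56, with Srsf1 first at 33.02 in crypt and 19.39 in villus. Cytosolic ribosomal proteins gave 3 of 26 (Rpl4, Rpl23 and Rps12), and Rpl4 shares its region with Zwilch. Ribosome biogenesis gave 2 of 22, Rrs1 and Rrn3, and the proteasome 2 of 15, Psmb2 and Psme3. Mitochondrial respiration and maintenance gave 6 of 30, Atp5h and Cox7a2l having the highest ranks, at villus scores of 8.37 and 6.78. Zinc finger genes named Zfp gave 7 of 74, solute carriers 10 of 64 and centrosome and cilium genes 4 of 27. Except for the mitochondrial genes at 20%, these shares ran from 8.93% to 15.6%, near the 13.6% background or below it.

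Few markers of differentiated cell types had an E2f3 region away from Myc sites: 6 of 48 villus enterocyte genes and 3 of 28 genes of secretory lineages. Their counts among the members are therefore small and are not read against the 13.6% background. Of the genes marking villus enterocytes, 0 of 6 with a region were members, and of secretory lineages 0 of 3. The list of Wnt, stem cell and crypt genes had regions more often, at 18 of 46 genes, and 2 of the 18 were members. These were Mnt, the Max partner described above, and Lrig1, the latter with low scores of 5.88 in crypt and 3.91 in villus. No gene of the immune and stromal list had a region away from Myc sites in any library, nor did any of 1087 olfactory receptor genes. The list of apoptosis and p53 target genes gave 0 of 11, and housekeeping genes 0 of 13. The first of these counts covers that list only: Cdkn1a, which encodes p21, was a member but stood on the list of E2F and G1/S regulators. In all, 126 of the 580 member genes stood on at least 1 of the 29 lists and 454 on none.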

How the data were processed

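Binding sites of 8 ChIP-exo-seq libraries, 1 per group, were used as deposited. The submitters' processing notes name the tools Bowtie2 2.2.1 and MACS2 2.0.10 and the build mm9. Going by their names, the deposited lists are GEM events overlapping a MACS2 peak, with libraries merged and duplicates kept. Not given in the sources used here were the data merged, the GEM version, its thresholds and any normalization. The authors deposited 1 score per 1-bp site, of unstated meaning, used to rank sites within a list. No input library was used here, and depth is unknown.

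Deposited positions count from 0 and were raised by 1, since E2F words then centred on the sites. Start sites came from GENCODE M1 and sequence from NCBIM37, and no site lay beyond a chromosome end. Regions, patterns and words were computed with Python 3.11.15, numpy 2.4.6, scipy 1.17.1 and pysam 0.24.0, and the region code was tested on simulated sites. Where several sites of a library lay in a region, the highest score counted. Shares carry 95% Clopper-Pearson intervals, which cover counting error only. With 1 library per group no test between groups was possible. The members and the gene lists were chosen with earlier results of these data known. Genes named are the 12 highest by the lower score percentile, up to 4 per gene list, the 3 lowest and those at the thresholds. Other genes were named after their values were seen. Alternatives varied the window, the promoter distance, the Myc filter, the score minimum, the list length and the motif window.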

Additional observations from a re-analysis of the deposited data

How the results depend on the processing

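No paired analysis was possible because every group is 1 library and the labels carry no replicate numbers. Of 93 values under 16 alternative settings, 71 stayed within 1.5 times the count or within the counting interval, and 22 moved. Only the median distance to the start has a direction, and it stayed upstream wherever it was recomputed. Word and gene shares of the comparison groups were not recomputed, so whether the differences between members and those groups hold under these settings was not tested. Reducing every E2f3 list to the length of the shortest left 241 members with 272 genes, 30.01% of shared regions without a control site, an E2F word share of 34.85%, a CHR share of 16.6% and a median lower percentile of 77.32. A minimum score of 10 in all E2f3 lists left 172 members with 203 genes, 21.97% of shared regions without a control site, an E2F share of 32.56%, a CHR share of 19.77% and a median percentile of 77.14. The same minimum in the Rb-deficient lists alone left 127 members with 149 genes and 19 mitotic genes, 16.24% of shared regions, an E2F share of 29.13%, a CHR share of 21.26% and a percentile of 77.97. These settings remove low scores by construction. The share of regions without a control site was 26.15% without the Myc filter and 25.27% when regions within 1 kb of a control site were left out. The E2F share was 42.12% within 250 bp and 76.73% with 6-base words. Leaving out the control crypt Myc list, the longest, was added after seeing the data and gave 541 members. With 1 library per group, leaving out a replicate was not possible. Depth is unknown for every library, so a control site below the calling threshold cannot be told apart from an absent one.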
